A study of Mus musculus with 4 samples.

Results

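The genes for the subunits of the glutamate receptors and of the GABA-A receptors were described across 4 RNA sequencing libraries of cells labelled as microglia, from the cerebral cortex of mouse embryos. Members were the protein-coding genes whose symbols follow the receptor nomenclature: Gria for AMPA, Grin for NMDA, Grik for kainate, Grid for delta and Grm for metabotropic glutamate receptors, and Gabr with a subunit letter for GABA-A receptors. The deposited tables held 37 such genes among 21981 genes in all: 4 AMPA, 6 NMDA, 5 kainate, 2 delta, 8 metabotropic and 12 GABA-A subunits. Of 45 symbols that fit in the GENCODE mouse annotation, Gabra6, Gabrd, Gabre, Gabrp, Gabrq, Gabrr1, Gabrr3 and Grin2c were not analysed here. Of the 37 members, 32 had a count in every library, and 25 passed the filter on low counts and were tested. Grin2d, Grin3a, Grm8 and Gabrg3 were among those with no count for cKO 5.

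Glutamate is the main excitatory transmitter of the brain and GABA the main inhibitory one. AMPA, NMDA and kainate receptors are cation channels that open when glutamate binds, whereas metabotropic receptors signal through G proteins. GABA-A receptors are chloride channels, usually built from alpha, beta and gamma subunits, and in immature neurons, which hold much chloride, their opening can depolarise the cell. In the embryonic cortex these genes are known mainly from neurons and progenitors, with some metabotropic receptors also in glia. Microglia are the resident macrophages of the brain.

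All libraries came from untreated embryos at embryonic day 16, with the floxed Bach1 allele (Bach1 fl/fl) in the controls and a Bach1 conditional knockout (Bach1 cKO) in the others, whose driver the series text names Cx3. The control libraries are called control 1 and control 6 and the knockout libraries cKO 2 and cKO 5, after their titles. Bach1 encodes a heme-sensing transcriptional repressor. Whether the 2 libraries of a genotype came from separate animals, and how the cells were isolated, is not stated in the labels, so p-values measure the spread between these samples, which may be technical.

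Library totals ran from 17233115 to 19305078 reads, and 3 reads corresponded to between 0.155 and 0.174 CPM (counts scaled to a common library total); these floors cover counting error only. Bach1 itself stood at 45.8, 21.6, 29.98 and 35.4 CPM, where series of 4 values are always in the order control 1, control 6, cKO 2, cKO 5 (log2 fold change −0.07 ± 0.47 SE, edgeR adjusted p = 0.9997). A count over the whole gene includes exons outside the floxed part and does not check the labels. Microglial markers were abundant everywhere, summing to 25584, 40658, 9264 and 35938 CPM. The library cKO 2 stood apart: its microglial sum was the lowest, and its excitatory neuron markers (20 of 20 detected, 0 of them at 0 reads in any library) summed to 2493, 1287, 6404 and 1286 CPM in that order, the highest of the libraries. Interneuron markers summed to 74.5, 45.5, 313 and 41.1 CPM, and radial glia and astrocyte markers to 722, 218, 1523 and 190.4 CPM. Endothelial markers (3161, 589, 2446 and 329.9 CPM) and pericyte and fibroblast markers (3870.2, 749, 3486 and 281 CPM) were high in control 1 and cKO 2 alike. Oligodendrocyte lineage markers summed to 99.1, 44.9, 86.02 and 31.3 CPM and border macrophage markers to 235, 278, 125 and 523 CPM. Reads of the 20 listed markers of excitatory neurons were thus found in every library, and which cells they came from was not tested. By mean CPM the highest was Neurod6 (435, 134, 1653 and 95.4 CPM) and the lowest Slc17a7 (0.401, 0.696, 1.96 and 0.259 CPM). On the TMM scale 19 of the 20 were highest in cKO 2, while Mef2c (442, 565, 271 and 584 CPM) was highest in cKO 5. In CPM, Mef2c was lowest in cKO 2, as the microglial sum was. Log2 fold changes of cKO against control were positive for 19 of 20 tested excitatory neuron markers, 10 of 10 interneuron and 13 of 13 radial glia and astrocyte markers, and for 0 of 12 microglial markers, with 0 of these past an adjusted p of 0.05 (edgeR). The part that neurons or other cells among the sequenced material had in the receptor values was not tested, and in bulk RNA fewer cells of a type and less RNA per cell cannot be told apart.

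Many neuronal genes carry the RE1 element, the binding site of REST, a repressor that keeps neuronal genes silent in other cells, so the bases before the start sites of receptor genes were searched for it. RefSeq windows (GRCm38.p6, 250 bases before to 50 after the start) were found for 23 of the 37 members, with 30 windows in all. The windows shown were chosen with the values known: Gria2 and Grm2 hold the RE1 letters, and Gabra4 and Gabrb1 are neighbours on opposite strands that differed in cKO 5. Each is given 5′ to 3′ on the strand of its gene, as the 250 bases before the start, with matches to the RE1 letters TTCAGCACC (left part of the element), GGACAG (right part) or AGCACC and GGACAG with 2 bases between in capitals on either strand:
Gria2 (chr3:80802836-80803085, minus strand): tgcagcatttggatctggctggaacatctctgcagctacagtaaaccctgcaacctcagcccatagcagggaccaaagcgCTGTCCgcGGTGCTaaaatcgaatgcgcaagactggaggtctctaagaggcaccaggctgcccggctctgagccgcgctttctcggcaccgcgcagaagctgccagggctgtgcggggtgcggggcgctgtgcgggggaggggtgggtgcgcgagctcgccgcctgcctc
Grm2 (chr9:106656110-106656359, minus strand): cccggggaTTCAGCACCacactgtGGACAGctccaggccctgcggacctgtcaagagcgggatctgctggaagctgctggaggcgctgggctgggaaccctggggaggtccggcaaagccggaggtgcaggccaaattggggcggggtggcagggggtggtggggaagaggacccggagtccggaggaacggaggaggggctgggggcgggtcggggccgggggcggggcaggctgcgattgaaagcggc
Gabra4 (chr5:71658309-71658558, minus strand): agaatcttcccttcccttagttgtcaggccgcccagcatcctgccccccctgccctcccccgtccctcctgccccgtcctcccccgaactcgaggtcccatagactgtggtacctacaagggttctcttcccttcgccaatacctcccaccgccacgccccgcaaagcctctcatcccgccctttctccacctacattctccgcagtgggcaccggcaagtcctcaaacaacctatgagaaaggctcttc
Gabrb1 (chr5:71657671-71657920, plus strand): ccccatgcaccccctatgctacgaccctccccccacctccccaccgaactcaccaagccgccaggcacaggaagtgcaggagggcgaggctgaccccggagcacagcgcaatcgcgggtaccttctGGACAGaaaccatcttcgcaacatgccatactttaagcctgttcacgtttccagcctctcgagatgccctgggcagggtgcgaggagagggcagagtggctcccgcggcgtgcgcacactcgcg

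In the Gria2 window the capitals are the reverse complement of GGACAG and AGCACC with 2 bases between, a form searched after the sequence had been read. Among the 30 member windows it was found in that of Gria2 alone, against 0.0518% of all 32817 RefSeq windows of this length. Among member windows, the 9 letters TTCAGCACC were found only in that of Grm2 (0.372% of all windows), with GGACAG following after 7 bases. GGACAG by itself was in 12 of 30 member windows, the first Gabrb1 window included, and in 22.2% of all windows. Other letters searched were the cyclic AMP response element TGACGTCA (0 of 30 windows, 1.79% of all), the NRF1 core CGCATGCG (1 of 30, in a second Gabrb1 window, 1.86% of all) and the E-box CAGATG bound by NEUROD factors (2 of 30, in Gabra5 and Grin3b, 17.2% of all). All were searched on both strands, and the 6 letters AGCACC are contained in TTCAGCACC. The member windows had a median GC content of 59.3%, against 52.7% over all windows, and a median ratio of observed to expected CpG of 0.507, against 0.383. These matches describe letters only, and no binding was measured.

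Receptor genes were measured at low levels, with the highest values nearly always in cKO 2 and the lowest most often in cKO 5. Summed over the 37 members, the level was 196, 68.4, 636 and 51.8 CPM, so the cKO libraries held both the highest and the lowest sum. By CPM, 34 of 37 members were highest in cKO 2; the exceptions were Grin2a, Gabrr2 and Grm6, each highest in control 1. On CPM divided by TMM factors (edgeR's correction for library composition), 22 of the 25 tested members were highest in cKO 2, against 35.8% of all 15951 genes tested, and 12 were lowest in cKO 5, against 30.2%. Gria2 alone gave 36.8% of the 16605 reads counted in members. Per kilobase of annotated exon, the mean level over the 4 libraries was 5.65 CPM per kilobase for Gria2, 2.94 for Grm3, 2.25 for Gria1, 2.09 for Gabra2, 1.40 for Gabra4 and 1.15 for Grik2. The library ranges of neighbouring genes in this order overlapped.

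**Figure D1:**
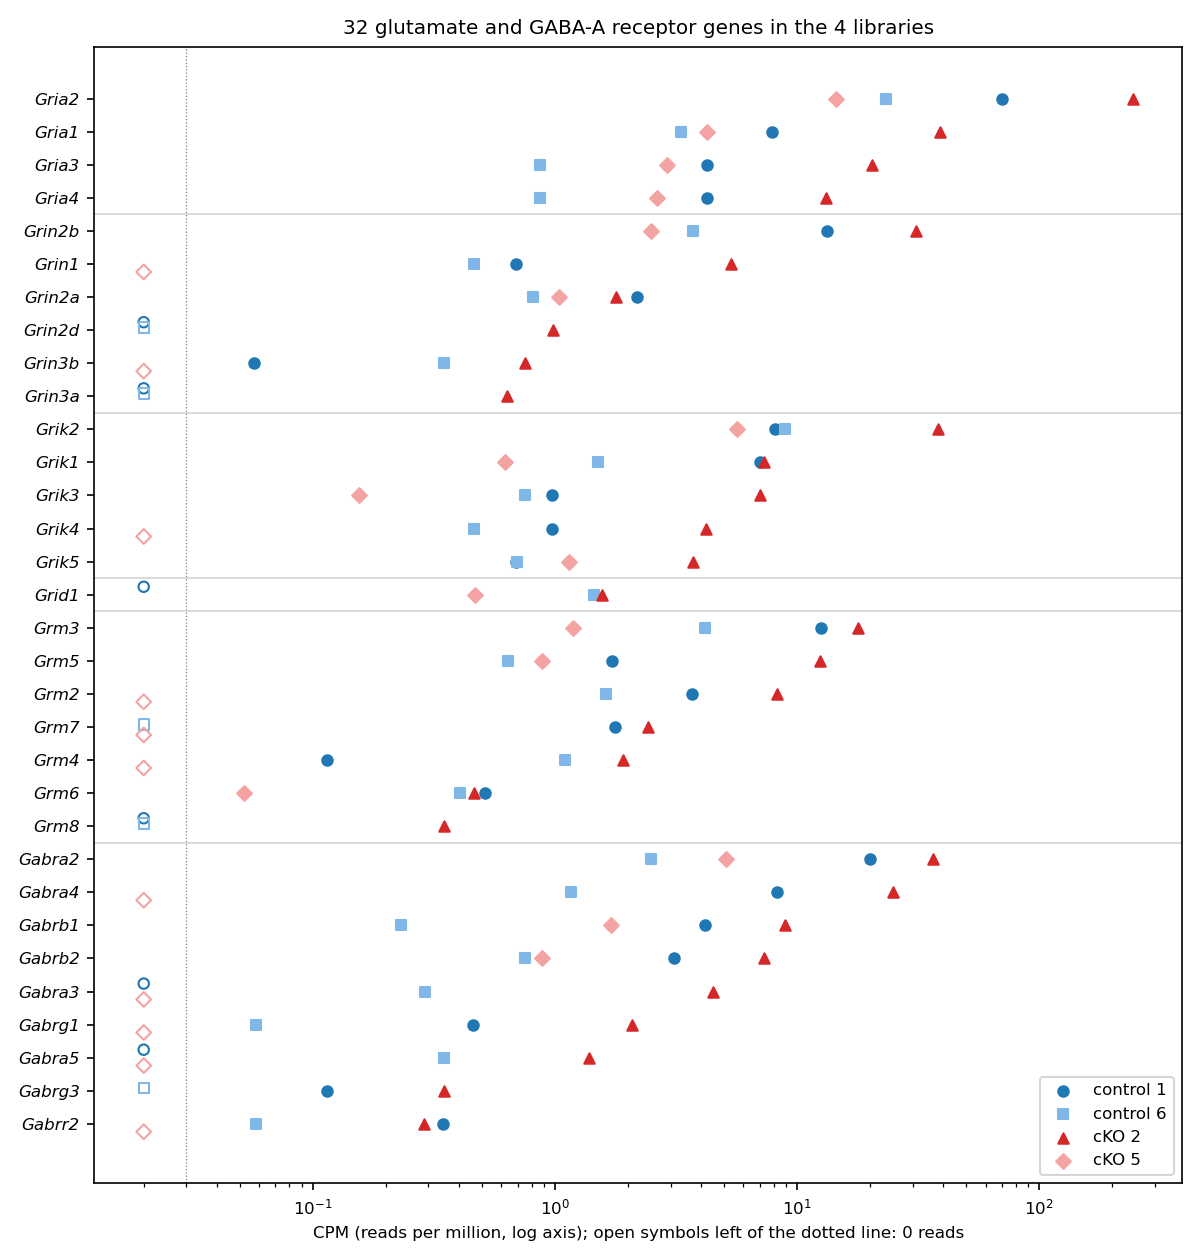
Level of 32 receptor genes in each library, in CPM on a log axis, grouped by family from AMPA (top) to GABA-A (bottom); open symbols left of the dotted line mark 0 reads, and members with no count in cKO 5 have no symbol for it. The cKO 2 symbol is the rightmost for 29 of 32 genes, while that of cKO 5 is often at or near the left.

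No receptor gene passed the threshold between genotypes in edgeR's quasi-likelihood test, so the fold changes below are values without a call. At an adjusted p under 0.05, 0 of 25 members passed, as did 0% of all 15951 genes. At an unadjusted p under 0.05 the members gave 0 of 25, against 0.307% of all genes (49 genes). DESeq2 and limma-voom also gave 0 members after adjustment. At an unadjusted p under 0.05, DESeq2, run without the filter, gave 1 of 32 members, against 112 of 18723 genes. For limma-voom it was 0 of 25 members, against 37 of 15951 genes. The adjusted p was 0.9997 for each member in edgeR. Log2 fold changes of cKO against control were positive in 23 of 25 members with a median of 1.18, where all genes had a median of 0.03 and 52.8% were positive. Standard errors ran from 0.900 to 2.63, and 0 of 25 members were more than 2 standard errors from 0. Without cKO 2 the median was −0.97 and 4 of 25 members were positive, while without cKO 5 the median was 2.02 and 25 of 25 were positive. Without control 1 the median was 2.10. In limma-voom it was 0.47, with 16 of 25 positive. Scaled on the reads of the 20 excitatory neuron markers in place of all reads, it was −0.0032, where the median of all genes was −0.32.

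Both cKO libraries lay above both controls for 2 of 25 members, Grik5 among them, a share like that of all genes, of which 8.34% did so. Both lay below for 0 of 25, against 7.65% of all genes. Among the other 23 tested members, the genotypes overlapped. Scaling on the neuron markers, described below, changes these sets.

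**Figure D2:**
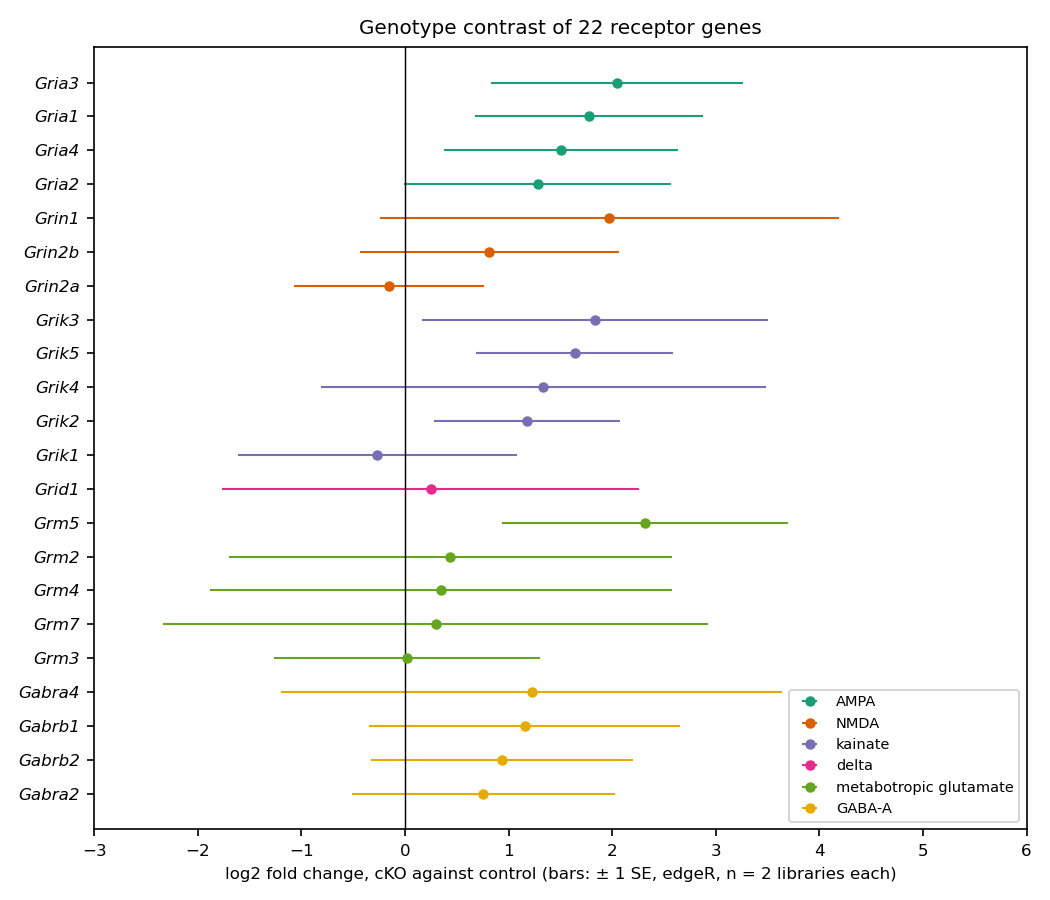
Log2 fold change of cKO against control for 22 of the 25 receptor genes tested, with bars of 1 standard error on each side (edgeR, 2 libraries per genotype), coloured by family. The estimates run from −0.27 for Grik1 to 2.32 for Grm5, and no gene lies more than 2 standard errors from 0.

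The AMPA receptor genes gave the most reads of the families, summing to 86.8, 28.4, 315 and 24.2 CPM, with a control mean of 57.6 ± 41.3 CPM and a cKO mean of 169.8 ± 205.8 CPM (SD, 2 libraries per genotype). Gria2 (chromosome 3, 80681450 to 80802835, minus strand, GRCm38) encodes GluA2, the subunit whose edited form keeps calcium out of AMPA receptors, and had control values of 70.5 and 23.4 CPM and cKO values of 243 and 14.5 CPM. The cKO values lay on either side of both controls, and the log2 fold change was 1.28 ± 1.29 (SE), or −1.55 without cKO 2. Gria1 (chromosome 11, 57011387 to 57330244, plus strand) encodes GluA1, a subunit trafficked to synapses with activity, and had 7.90 and 3.31 CPM in the control pair and 38.9 and 4.25 CPM in the cKO pair. Its cKO 5 value lay between the controls, and the log2 fold change was 1.78 ± 1.10 (without cKO 2, −0.26). Gria3 had control values of 4.24 and 0.870 CPM and cKO values of 20.4 and 2.90 CPM. For Gria4, the remaining channel subunit, the values were 4.24 and 0.870 CPM in the control pair and 13.2 and 2.64 CPM in the cKO pair, and the controls held 74 and 15 reads of either gene. For both, cKO 5 again lay between the controls, with log2 fold changes of 2.05 ± 1.22 for Gria3 and 1.503 ± 1.13 for Gria4. These stayed positive without cKO 2, at 0.35 and 0.21. Per kilobase, Gria2 made up 65.3, 66.03, 59.6 and 39.6 percent of the family in the 4 libraries and Gria1 18.8, 24.03, 24.6 and 29.97 percent, so the Gria2 share was lowest in cKO 5.

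Of the NMDA receptor genes, Grin2b had the highest level per kilobase in every library. It (chromosome 6, 135713233 to 136173511, minus strand) encodes GluN2B, the glutamate-binding subunit typical of the embryonic forebrain, and had control values of 13.3 and 3.71 CPM and cKO values of 30.96 and 2.49 CPM. These values put the cKO libraries on either side of the controls (log2 fold change 0.81 ± 1.25; without cKO 2, −1.61). Grin1 encodes GluN1, the subunit that every NMDA receptor needs, and had 0.687 and 0.464 CPM in the control pair and 5.31 and 0 CPM in the cKO pair, with 12, 8, 92 and 0 reads. The count of 0 in cKO 5 allows up to 0.155 CPM there. Its log2 fold change was 1.97 ± 2.21, and 1307 of its annotated exon bases lie opposite exons of the antisense gene Grin1os, whose reads cannot be told apart without strand information. Grin2a, the subunit that becomes prominent after birth, had control values of 2.17 and 0.812 CPM and cKO values of 1.79 and 1.04 CPM, from 38, 14, 31 and 20 reads. Its values spanned the narrowest range of the 3 genes, with both cKO libraries between the controls and a log2 fold change of −0.15 ± 0.92. Grin2d and Grin3a were listed at 0 reads in both controls and had 17 and 11 reads in cKO 2. Grin3b had 1, 6, 13 and 0 reads.

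The kainate receptor genes summed to 17.7, 12.3, 60.5 and 7.56 CPM and gave most reads from Grik2 (chromosome 10, 49094833 to 49788766, minus strand), which encodes the channel subunit GluK2. Grik2 had 8.07 and 8.88 CPM in the control pair and 38.3 and 5.65 CPM in the cKO pair, with close control values and cKO values on either side (log2 fold change 1.18 ± 0.90; without cKO 2, −0.48). Grik1, encoding GluK1, had control values of 7.04 and 1.51 CPM and cKO values of 7.28 and 0.622 CPM. Here control 1 was close to cKO 2 in CPM and higher on the TMM scale, and the log2 fold change of −0.27 ± 1.35 was the lowest of the members. Grik3, for the low-affinity subunit GluK3, had 0.973 and 0.754 CPM in the control pair and 7.05 and 0.155 CPM in the cKO pair (log2 fold change 1.83 ± 1.67). The high-affinity subunits, which need a partner to form channels, are encoded by Grik4 and Grik5. Grik4 had control values of 0.973 and 0.464 CPM and cKO values of 4.22 and 0 CPM, with 0 reads in cKO 5 and a log2 fold change of 1.34 ± 2.15. Grik5 had 0.687 and 0.696 CPM in the control pair and 3.70 and 1.14 CPM in the cKO pair, from 12, 12, 64 and 22 reads. Both cKO values of Grik5 exceeded both controls, with a log2 fold change of 1.64 ± 0.95 (adjusted p = 0.9997, edgeR) and 0.82 without cKO 2.

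Delta receptors are relatives of the ionotropic receptors and bind cerebellins at synapses. Grid1, the gene for one of them, had control values of 0 and 1.45 CPM and cKO values of 1.56 and 0.466 CPM, from 0, 25, 27 and 9 reads, so the controls held a value of 0 and a value near the highest (log2 fold change 0.25 ± 2.01).

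Metabotropic glutamate receptor genes summed to 20.4, 8.47, 46.7 and 2.18 CPM, with a control mean of 14.4 ± 8.42 CPM and a cKO mean of 24.4 ± 31.5 CPM (SD, 2 libraries per genotype). Grm3 (chromosome 5, 9485541 to 9725170, minus strand) encodes mGlu3, a receptor of the group that inhibits adenylyl cyclase and is found in glia as well as neurons, and had 12.5 and 4.18 CPM in the control pair and 17.9 and 1.19 CPM in the cKO pair. Control 1 and cKO 2 were high and control 6 and cKO 5 low, and the log2 fold change was 0.02 ± 1.28. Grm5, for mGlu5, which signals through phospholipase C, had control values of 1.72 and 0.638 CPM and cKO values of 12.5 and 0.881 CPM. Only cKO 2 was high, with a log2 fold change of 2.32 ± 1.38 (without cKO 2, −0.27). Grm2, the close relative of Grm3, had 3.66 and 1.62 CPM in the control pair and 8.26 and 0 CPM in the cKO pair, with 64, 28, 143 and 0 reads and a log2 fold change of 0.44 ± 2.14; 470 of its exon bases lie opposite another annotated gene. Grm7, a presynaptic receptor of the third group, was detected in 1 library of each genotype, with control values of 1.77 and 0 CPM and cKO values of 2.43 and 0 CPM (31, 0, 42 and 0 reads; log2 fold change 0.30 ± 2.63). Grm4 had 2, 19, 33 and 0 reads. Grm6 had 9, 7, 8 and 1 reads, and Grm8, listed at 0 reads in both controls, had 6 reads in cKO 2.

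Of the 12 GABA-A subunit genes, 7 were tested, and all 7 had positive log2 fold changes (median 1.16), none past the threshold. The family summed to 54.6, 12.4, 170.4 and 13.8 CPM.

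Among the alpha subunits, which together with beta subunits form the GABA site, Gabra2 had 19.9 and 2.50 CPM in the control pair and 36.3 and 5.08 CPM in the cKO pair. Both control 1 and cKO 2 were several times higher than the other libraries, and the log2 fold change was 0.76 ± 1.27. Gabra4 had control values of 8.24 and 1.16 CPM and cKO values of 24.8 and 0 CPM, from 144, 20, 429 and 0 reads. The cKO libraries thus held its highest value and no read at all, and its log2 fold change was 1.22 ± 2.42. Gabra3 and Gabra5 had 0 reads in control 1 and in cKO 5, with 5 and 6 reads in control 6 and 78 and 24 reads in cKO 2.

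Of the beta subunits, Gabrb1 had 4.18 and 0.232 CPM in the control pair and 8.90 and 1.71 CPM in the cKO pair. Gabrb2 had control values of 3.09 and 0.754 CPM and cKO values of 7.28 and 0.881 CPM. In both, cKO 5 lay between the controls, and log2 fold changes were 1.16 ± 1.502 and 0.93 ± 1.26. Further subunit genes were near the floor: Gabrg1 had 8, 1, 36 and 0 reads, Gabrr2 6, 1, 5 and 0 reads, and Gabrg3 2, 0 and 6 reads in the libraries that list it.

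Many GABA-A subunit genes lie in clusters, and chromosome 5 holds Gabrg1, Gabra2, Gabra4 and Gabrb1. These neighbours did not share a single order of libraries. Gabra4 had 0 reads in cKO 5 where Gabrb1 had 33 and Gabra2 98, and Gabrb1 had 4 reads in control 6 where Gabra4 had 20. Gabra4 and Gabrb1 lie on opposite strands with RefSeq start sites 387 bases apart, and each gene runs across the start site of the other. Their first parts thus overlap, and each of the upstream sequences given above lies inside the other gene. In all, 46 exon bases are annotated in both.

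Counts of 0 were frequent among members that passed the filter: 8 of 25 had no read in some library, against 5.62% of all genes tested. The genes tested were not matched to the members for level, and several of the 8 had few reads in all, such as Grm4 with 54 and Grid1 with 61. Among the 8 were Grid1 in control 1, Gabra4, Grin1, Grik4, Grm2 and Grm4 in cKO 5, and Grm7 in control 6 and cKO 5. For Gabra4 and Grm2 the same genotype held at least 143 reads in its other library.

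Summed over all members, the receptors put the libraries in the same order as the excitatory neuron markers did. Interneuron markers and radial glia and astrocyte markers gave this order too. For the excitatory neuron markers, control 6 and cKO 5 were nearly equal, at 1287 and 1286 CPM, with most of these reads from Mef2c and Nrp1. Receptor reads were also set against the reads of the excitatory neuron markers. Per 1000 reads of the 20 markers, all receptor genes together gave 78.5, 53.1, 99.3 and 40.3 reads, with a control mean of 65.8 ± 17.96 and a cKO mean of 69.8 ± 41.7 (SD, 2 libraries per genotype). The ratio of highest to lowest library was 2.46 on this scale and 12.3 in CPM, and cKO 2 and cKO 5 were still the highest and the lowest. AMPA genes gave 34.8, 22.1, 49.2 and 18.9 reads per 1000 marker reads and GABA-A genes 21.9, 9.60, 26.6 and 10.8. NMDA genes gave 6.50, 4.15, 6.31 and 2.74, metabotropic genes 8.17, 6.58, 7.30 and 1.69 and kainate genes 7.12, 9.56, 9.45 and 5.88. In each of these 5 families the genotypes overlapped, and cKO 5 was the lowest library in all but the GABA-A genes, where control 6 was.

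These values depend on which markers are counted. An alternative chosen after seeing the data left out Mef2c (442, 565, 271 and 584 CPM) and Nrp1 (357, 213, 459 and 257 CPM). Both varied less between libraries than the other 18, and Mef2c was lowest in cKO 2 and highest in cKO 5. The 20 markers held 43564, 22182, 110853 and 24818 reads, of which 29603, 8786, 98212 and 8571 came from the other 18. In control 6 and cKO 5, most reads of the 20 thus came from Mef2c and Nrp1. The remaining 18 markers summed to 1694, 509.8, 5673 and 444 CPM, a ratio of 12.8 between the highest and the lowest library, against 4.98 for all 20. Per 1000 reads of the 18, all receptor genes gave 116, 134, 112 and 117 reads, a ratio of 1.20 between highest and lowest. AMPA genes gave 51.2, 55.8, 55.6 and 54.6 and GABA-A genes 32.2, 24.2, 30.03 and 31.2. NMDA genes gave 9.56, 10.5, 7.13 and 7.93 and metabotropic genes 12.03, 16.6, 8.24 and 4.90, with both controls above both cKO libraries in both families, an order not found with the 20 markers. Kainate genes gave 10.5, 24.1, 10.7 and 17.03, with cKO 5 above control 1 and cKO 2, where with the 20 markers it was the lowest. With 2 libraries a genotype, an exact two-sided permutation test of such values cannot go below p = 0.333, and none was used.

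**Figure D3:**
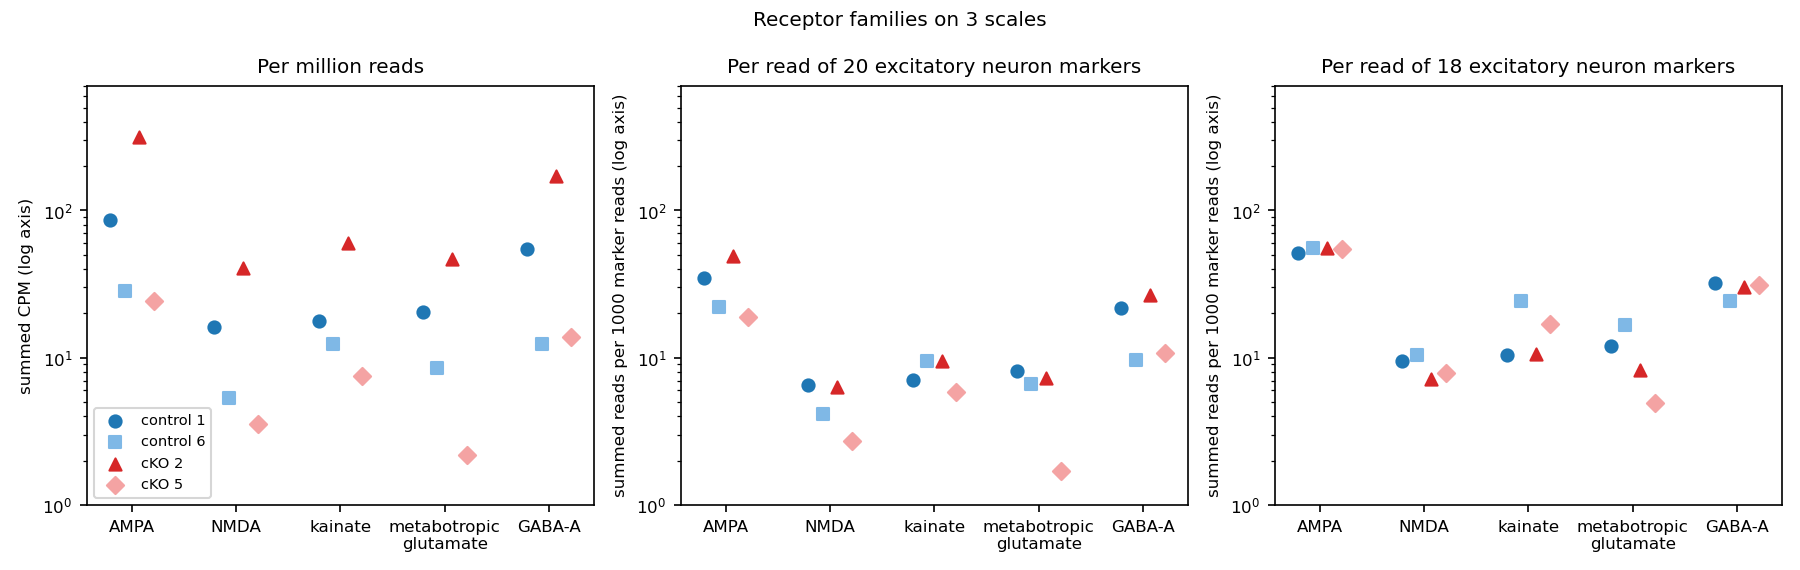
Summed level of the AMPA, NMDA, kainate, metabotropic glutamate and GABA-A receptor genes in each library, in CPM (left), per 1000 reads of the 20 excitatory neuron markers (middle) and per 1000 reads of 18 of them, chosen after seeing the data (right), on log axes of the same extent; delta genes, with 0 reads in control 1, are not drawn. The AMPA sums spread from 24.2 to 315 CPM on the left, from 18.9 to 49.2 in the middle and from 51.2 to 55.8 on the right.

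Among the 17 tested members with reads in every library, the median ratio of the highest to the lowest library was 14.6 in CPM, 3.37 per read of the 20 markers and 3.05 per read of the 18. It was smaller than in CPM for 16 of the 17 with 20 markers and for 15 with 18. With 20 markers the highest value was in control 1 for 9 of the 25 tested members, in control 6 for 3, in cKO 2 for 12 and in cKO 5 for 1. With 18 markers these numbers were 5, 9, 2 and 9. Both cKO libraries were above both controls with 18 markers for 5 of 25, Gria1, Gria3 and Grm5 among them, where 1.18% of all genes were. Both were below for 5 of 25, Grin2b, Grik1, Grm2 and Grm3 among them, where 8.75% of all genes were. With all 20 markers the numbers were 5 (Gria1, Gria3, Gria4 and Grik5 among them) against 1.63% of all genes, and 2 (Grik1 and Grm3) against 10.3%. Marker reads were most numerous in cKO 2, so dividing by them lowers genes there that do not follow the markers. The shares of all genes on these scales are therefore not a like-for-like background for the members. Gria1 and Gria3 above, and Grik1 and Grm3 below, were thus found on both marker scales. These scales use the same counts and share 18 markers, so they are not independent of each other. With 20 markers some margins were narrow: cKO 5 was close to control 1 for Gria1, and cKO 2 to control 6 for Grik1. That control 6 value of Grik1 rests on 26 reads. Per 1000 reads of the 18 markers, Gria1 gave 4.66, 6.49, 6.86 and 9.57 reads. Its cKO 2 value was close to that of control 6, which rests on 57 reads of Gria1. Grm3 gave 7.40, 8.19, 3.16 and 2.68 and Grik1 4.15, 2.96, 1.28 and 1.40. The fitted log2 fold change of Grm3 was −1.41 with 18 markers (standard error 1.71, adjusted p of 1 in edgeR) and −1.14 with 20.

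The balance between related subunits does not depend on library scaling and was compared within libraries, for 5 gene pairs chosen after the counts were seen. It can still depend on the mix of cells in a library, which was not tested. The intervals are 95% Wilson intervals and cover counting error only. Of the reads of Grm3 and Grm5 together, Grm3 took 87.95% (83.3% to 91.4%) in control 1, 86.7% (77.8% to 92.4%) in control 6, 58.9% (54.7% to 63.1%) in cKO 2 and 57.5% (42.2% to 71.5%) in cKO 5. The controls and the cKO libraries did not overlap, the share of Grm5 being larger in cKO. Gria2 took, of Gria2 and Gria1, 89.9% (88.2% to 91.4%) in control 1, 87.6% (84.3% to 90.3%) in control 6, 86.2% (85.2% to 87.1%) in cKO 2 and 77.3% (72.7% to 81.3%) in cKO 5. Here too both cKO values lay below both controls, though cKO 2 was close to control 6 and its interval overlapped that of control 6. Grin2b took, of Grin2b and Grin2a, 85.9% (81.3% to 89.6%) in control 1, 82.1% (72.1% to 89.00%) in control 6, 94.5% (92.3% to 96.1%) in cKO 2 and 70.6% (58.9% to 80.1%) in cKO 5, so the cKO libraries were on either side of the controls.

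Of Grik2 and Grik1, Grik2 took 53.4% (47.4% to 59.3%) in control 1, 85.5% (79.6% to 89.9%) in control 6, 84.03% (81.3% to 86.4%) in cKO 2 and 90.1% (83.5% to 94.2%) in cKO 5; control 1 alone was low. Of Gabra2 and Gabra4, Gabra2 took 70.7% (66.6% to 74.6%) in control 1, 68.3% (56.00% to 78.4%) in control 6, 59.5% (56.5% to 62.4%) in cKO 2 and 100% (96.2% to 100%) in cKO 5. In 2 of the 5 pairs the genotypes thus did not overlap, for Gria2 and Gria1 only narrowly. Even for a pair without overlap, an exact two-sided permutation test cannot go below p = 0.333, and none was used. Among all genes, 8.34% had both cKO values above and 7.65% below the controls on the TMM scale. These are shares for single genes and are no background for the pairs, which were chosen with the counts in view.

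**Figure D4:**
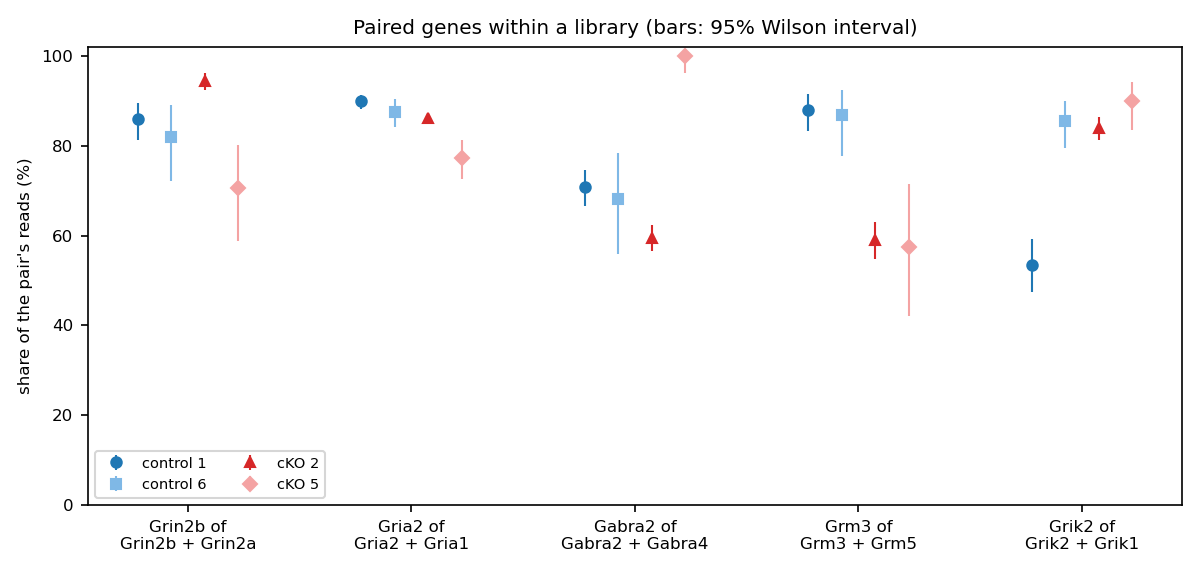
Share of the first gene in the summed reads of a gene pair, in percent, for 5 pairs and the 4 libraries, with bars for the 95% Wilson interval. For Grm3 of Grm3 and Grm5 the controls sit at 87.95% and 86.7% and the cKO libraries at 58.9% and 57.5%; for Grik2 of Grik2 and Grik1, control 1 sits apart at 53.4%.

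The authors' deposited tables compare each cKO library with each control library, so each library enters 2 comparisons, and their calls rest on single libraries. In the authors' deposited table of cKO 2 against control 1, 29 of 37 members were called higher (20.0% of all listed genes) and 0 lower (11.6%). The authors' deposited table of cKO 2 against control 6 called 32 of 37 members higher (33.7% of listed genes) and 0 lower (13.4%). For cKO 5 the directions were mostly opposite. Against control 1, the authors' deposited table called 2 of 28 members higher (8.79% of listed genes) and 19 lower (26.0%). Against control 6, the authors' deposited table called 5 of 29 higher (9.23%) and 15 lower (11.4%). The members' calls thus had mostly opposite directions in the cKO libraries, set against the same controls.

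Genes that make, move and anchor these transmitters and receptors were described from 7 lists, and no gene of any list passed the threshold in edgeR (0% of all genes did). In the list for GABA synthesis, release and uptake, 5 of 6 tested genes had positive log2 fold changes (median 1.36). The GABA transaminase gene Abat had 14.1, 5.80, 60.7 and 5.96 CPM. Gad2, a glutamate decarboxylase that makes GABA, had 11.7, 3.89, 41.9 and 8.81 CPM. Aldh5a1, which acts at the last step of GABA breakdown, had 8.87, 6.56, 4.22 and 4.51 CPM and was lower in both cKO libraries than in both controls, as 7.65% of all genes were. Abat and Gad2 were highest in cKO 2, as the receptors were.

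Of GABA-B receptor and chloride transporter genes, 3 of 5 tested were positive and 2 negative (median 0.08). Kctd12, an auxiliary subunit of GABA-B receptors, had 66.3, 128, 19.4 and 169 CPM, and Slc12a2, the chloride importer NKCC1, 103, 87.9, 52.4 and 131 CPM. Both were lowest in cKO 2, where the receptor genes were highest. Gabbr1, a GABA-B subunit gene, had 27.7, 13.3, 36.6 and 10.8 CPM, and its obligate partner Gabbr2 1.37, 1.45, 8.49 and 0.881 CPM.

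For glutamate release and uptake, 5 of 7 tested genes were positive (median 0.82). Glul, the glutamine synthetase gene, had 246, 354, 146 and 306 CPM. The glial glutamate transporter gene Slc1a3 had 119, 49.7, 306 and 29.5 CPM and the vesicular transporter gene Slc17a6 19.8, 7.66, 75.9 and 4.61 CPM. Glul was lowest in cKO 2, whereas both transporters were highest there.

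Auxiliary subunits of AMPA and kainate receptors, which steer receptor trafficking and gating, had 9 of 10 tested genes positive (median 1.27). The cornichon gene Cnih3 had 2.75, 1.45, 29.6 and 1.92 CPM, and the stargazin relative Cacng4 6.75, 4.87, 18.3 and 1.97 CPM. The kainate receptor partner Neto2 had 6.98, 2.38, 14.2 and 1.86 CPM and Shisa7 2.92, 2.03, 17.04 and 3.16 CPM. These 4 genes were highest in cKO 2, as the AMPA genes were.

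Scaffolds of excitatory synapses had 18 of 21 tested genes positive (median 0.83). Dlgap4 had 147, 101, 289.6 and 93.6 CPM, Gripap1 92.4, 66.3, 130.4 and 69.3 CPM, the kinase gene Camk2b 26.7, 10.1, 83.5 and 6.22 CPM and Pick1 20.2, 15.4, 42.1 and 17.1 CPM. Scaffolds of inhibitory synapses had 7 of 8 positive (median 0.85). Gphn, encoding gephyrin, the anchor of GABA-A and glycine receptors, had 19.2, 10.97, 36.6 and 18.4 CPM, and Lhfpl4, a GABA-A receptor partner, 16.4, 8.82, 69.96 and 2.49 CPM. Gabarap, an autophagy and receptor trafficking gene, had 101, 120.3, 86.7 and 143 CPM, and Trak2 55.9, 39.1, 58.8 and 29.6 CPM. Gabarap was highest in cKO 5, unlike the receptors. Of the glycine receptor genes, the 2 tested were positive: the beta subunit Glrb had 2.69, 0.812, 19.5 and 1.97 CPM and the embryonic alpha subunit Glra2 3.03, 0.754, 11.5 and 0.829 CPM.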

How the data were processed

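The submitters' processing notes name Bowtie2 2.2.3, TopHat2 2.0.12, HTSeq 0.6.0 and the mm9 build, without roles or settings; strandedness and cell isolation were not stated. However, 90.2% of 21932 matched genes had the same position as in GENCODE release M21 of GRCm38, so GRCm38 coordinates are used. Each of the 4 tables that the authors deposited pairs a cKO with a control library and gives raw read counts per gene. The deposited normalized values are CPM, and the fold change deposited beside them is cKO over control CPM, a ratio, also given as log2. The test behind the deposited p-values was not stated; every call by the authors went with a p under 0.05 and an absolute log2 change of 1 or more. A library had the same counts in each of its tables; 0 per-sample columns were left unused.

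Counts were joined by gene, and 18723 genes had a count in every library. CPM was recomputed from the counts and the library totals. Genotypes were compared with edgeR 4.0.16 (R 4.3.3): TMM factors (1.03, 0.917, 1.15 and 0.919 for control 1, control 6, cKO 2 and cKO 5), filterByExpr with a minimum count of 10, the two-sided quasi-likelihood test and Benjamini-Hochberg adjustment at 0.05 over 15951 genes, with 2 residual degrees of freedom and a common dispersion of 0.425. Alternatives used DESeq2 1.42.0, limma 3.58.1 (voom), DESeq2's size factors in edgeR, no filter, each library left out and scaling on excitatory neuron markers. The pipeline was run on simulated data. Its outcome is not given here, so how many true changes the fits would miss is not stated. The members, the gene lists (8 of cell type markers and 7 of pathways) and the motifs were chosen with earlier results of these data known. Named genes were, per family, up to 6 with the highest mean CPM of at least 1, any member of at least 40 reads not highest in cKO 2, and up to 4 per pathway list by mean CPM; those outside the rule are given by their reads. Some genes are included in sums and counts but are not reported here by name. Promoter sequences are from RefSeq (GRCm38.p6). Exon lengths are the merged exons of GENCODE.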

Additional observations from a re-analysis of the deposited data

How the results depend on the processing

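No paired analysis was possible because the genotypes share no replicate numbers (1 and 6 in control, 2 and 5 in cKO). After adjustment, 0 members and 0 genes passed with DESeq2, limma-voom, DESeq2's size factors, no filter, each library left out, or scaling on 20 or 18 excitatory neuron markers (for these counts, the marker scalings were added after seeing the data). At an unadjusted p under 0.05, DESeq2 gave 112 genes, limma-voom 37, DESeq2's size factors in edgeR 49, no filter 149, the 20 markers 57, the 18 markers 50, and leaving out a library 10 to 1784 (without control 1, 40; control 6, 10; cKO 2, 583; cKO 5, 1784), against 49 with edgeR. With a library left out, the lone sample of its genotype is assumed to vary like the others.

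The median log2 fold change of the 25 tested members, 1.18, was 0.47 in limma-voom, and 1.16 to 1.17 with DESeq2, its size factors or no filter. Leaving out a library gave −0.97 to 2.10, negative without cKO 2. Scaling on the 20 excitatory neuron markers gave −0.0032 and on 18 of them −0.21 (all genes −0.32 and −0.11); the cause was not tested. Both cKO libraries lay above both controls for 5 members in place of 2 on either marker scale. They lay below for 2 members with 20 markers and 5 with 18, in place of 0, and without the filter for 1, Grm6.

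Of the 22 tested members named, 0 changed sign with DESeq2, its size factors or no filter. In limma-voom, 6 did: −1.86 for Gabra4, −0.61 for Grin1, −1.04 for Grik4, −2.34 for Grm2, −0.69 for Grm3 and −0.73 for Grm4. With 20 markers, 10 did: −0.047 for Gabra2, −0.11 for Gabra4, −0.0032 for Gabrb2, −0.28 for Grin2b, −0.88 for Grid1, −0.13 for Grik4, −1.04 for Grm2, −1.14 for Grm3, −1.44 for Grm4 and −0.85 for Grm7. With 18 markers, 13 did: −0.21 for Gria2, −0.68 for Gabra4, −0.027 for Gabrb2, −0.36 for Grin1, −0.45 for Grin2b, −1.12 for Grid1, −0.19 for Grik2, −0.31 for Grik3, −0.85 for Grik4, −1.79 for Grm2, −1.41 for Grm3, −2.44 for Grm4 and −1.16 for Grm7. Leaving out each library in turn changed the sign of 19 members in at least 1 of the 4 fits (17 without cKO 2, 4 without control 1, 3 without control 6 and 2 without cKO 5). Lowest and highest estimates were −0.26 to 2.58 for Gria1, −1.55 to 2.16 for Gria2, −0.97 to 2.73 for Gabra2, −9.31 to 3.04 for Gabra4, −0.18 to 4.17 for Gabrb1, −0.96 to 2.10 for Gabrb2, −6.34 to 2.96 for Grin1, −0.65 to 0.58 for Grin2a, −1.61 to 1.83 for Grin2b, −0.78 to 7.12 for Grid1, −2.61 to 1.05 for Grik1, −0.48 to 1.92 for Grik2, −2.31 to 2.78 for Grik3, −6.65 to 2.32 for Grik4, −8.51 to 1.42 for Grm2, −2.65 to 0.89 for Grm3, −6.50 to 2.83 for Grm4, −0.27 to 3.18 for Grm5 and −6.89 to 7.21 for Grm7. Estimates past 5 in size come from genes with 0 reads in the library left to stand for a genotype. Gria3, Gria4 and Grik5 stayed positive in these 4 fits. The 12 members not tested had 83 reads or fewer each over the libraries, but some tested members had fewer than 83, such as Grm4 with 54. Members without a count in every library were not fitted, and the other untested members did not pass the filter on low counts.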
